A study of Mus musculus with 5 samples.

Results

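Mitochondrial fatty acid oxidation was followed through 10 genes: Cpt1a, Cpt2, Slc25a20, Acadm, Acadl, Acadvl, Hadha, Hadhb, Etfa and Etfdh. They were taken by name, not by a cut on their values, but with earlier results of these data known. They are 10 of the 21938 protein-coding genes on the chromosomes of the peak lists. A peak was counted for a gene when it shared at least 1 bp with the gene body or the 10 kb on either side of it in GRCm38. The measurement was ChIPseq of acetylated histones in CD8+ T cells of the memory type (T_M), with 2 WT libraries and 3 libraries labelled PDH_Mutant, which the study names TPdh-/-. By the study's methods, TPdh-/- mice carry the floxed Pdha1 allele of the B6.129P2-Pdha1tm1ptl/J strain and the CD4-Cre transgene B6.Cg-Tg(Cd4-cre)1Cwi/BfluJ, so the subunit of the pyruvate dehydrogenase complex is deleted in T cells and, through the Cd4 promoter, not in CD8 cells alone. Mice were male and female and aged 8 to 12 weeks. The methods describe T_M cells as OT-I cells activated with OVA peptide for 3 days and then grown with IL-15 at 10 ng/mL for 4 days, which both groups shared. The labels do not say which alleles the WT mice carried or whether animals were pooled, and nothing ties a library to one mouse. The study gives a larger number of samples per condition, and further libraries were not analysed here. The antibody was ab1191, raised to acetyl-lysine on histones, and the labels also give acetyl K18. A p-value here measures only the spread between these 5 libraries.

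Long-chain fatty acids enter mitochondria bound to carnitine. Cpt1a, on the outer membrane, makes the acylcarnitine, Slc25a20 carries it across the inner membrane, and Cpt2 returns the acyl group to coenzyme A in the matrix. Each turn of β-oxidation then starts with an acyl-CoA dehydrogenase, of which Acadvl, Acadl and Acadm prefer very long, long and medium chains. Hadha and Hadhb, the subunits of the trifunctional protein, carry out the remaining steps for long chains and release acetyl-CoA. Etfa, a subunit of the electron transfer flavoprotein, and Etfdh, its dehydrogenase, pass the electrons to ubiquinone. The pathway is known as a fuel route of memory CD8+ T cells, and its product, acetyl-CoA, is also what pyruvate dehydrogenase makes and what histone acetyltransferases use. A peak of histone acetylation at a start site usually accompanies a promoter in use, but it measures neither transcript nor flux.

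The lists were of unequal length. WT replicates 1 and 2 held 15962 and 8859 peaks, and PDH_Mutant replicates 1, 2 and 3 held 4920, 5419 and 9418, so that PDH_Mutant replicate 3 was longer than WT replicate 2. The lists give no reads, so the depth of each library is unknown beyond the minimum of 37 M reads of 51 bases that the labels state. The cell type was checked with promoter peaks of marker genes. Of 8 T cell genes, 8 and 6 had one in the WT libraries and 2, 5 and 6 in the PDH_Mutant libraries. The shares of all protein-coding genes with one were 42.1% and 24.8% in WT and 15.3%, 16.5% and 27.9% in PDH_Mutant. Cd8b1 and Lck had one in all 5 libraries, whereas Cd8a had one in WT replicate 1 alone. None of 5 myeloid, 2 NK cell and 4 genes of other tissues had a promoter peak in any library. The B cell genes Cd79a, Cd79b, Ms4a1 and Pax5 had none in any library either. Cd4 had one in both WT libraries and in no PDH_Mutant library, and Zbtb7b had one in WT replicate 1. The part of other cells in the results was not tested.

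WT replicate 1 had a peak at all 10 genes, beside 54% of all protein-coding genes, and 3 of the 10 had a promoter peak in every library, beside 10.9%. Hadha and Hadhb, which share 1 promoter, and Acadl were marked in all 5 libraries, Etfa and Cpt2 in all but PDH_Mutant replicate 2 (the pattern of 2.71% of all genes), and the other 5 in only 1 or 2. No gene of the 10 was marked in both WT libraries and absent from every PDH_Mutant library, the pattern of 2.21% of all genes. A promoter peak here lay within 3000 bp of any annotated start site of the gene.

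The sequences of the promoters that separate these patterns are shown first: those marked in 4 or 5 libraries, followed by Slc25a20 and Cpt1a, which were marked in 1. They are from the RefSeq reference of GRCm38.p6, 5′ to 3′ on the gene's strand, and are the 250 bases before the RefSeq start, except the first, which is the 272 bases between the starts of Hadha (on the minus strand) and Hadhb (on the plus strand), written on the plus strand. Capitals mark matches to the motifs searched, on either strand. The positions are chr5:30154981-30155252 between Hadha and Hadhb, chr1:66863310-66863559 (minus strand) for Acadl, chr9:55512244-55512493 (minus strand) for Etfa, chr4:107923590-107923839 (minus strand) for Cpt2, chr9:108661886-108662135 (plus strand) for Slc25a20 and chr19:3323051-3323300 (plus strand) for Cpt1a.
Hadha to Hadhb: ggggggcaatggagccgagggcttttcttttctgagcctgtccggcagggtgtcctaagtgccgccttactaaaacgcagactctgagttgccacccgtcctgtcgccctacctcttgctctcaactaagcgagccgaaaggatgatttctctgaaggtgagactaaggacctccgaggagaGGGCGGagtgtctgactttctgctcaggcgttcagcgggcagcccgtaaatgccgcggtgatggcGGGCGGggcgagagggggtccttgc
Acadl: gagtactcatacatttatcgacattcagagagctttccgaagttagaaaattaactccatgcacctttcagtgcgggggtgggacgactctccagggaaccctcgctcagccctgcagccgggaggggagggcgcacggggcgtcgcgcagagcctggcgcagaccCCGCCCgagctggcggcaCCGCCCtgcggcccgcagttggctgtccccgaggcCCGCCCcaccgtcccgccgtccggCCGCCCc
Etfa: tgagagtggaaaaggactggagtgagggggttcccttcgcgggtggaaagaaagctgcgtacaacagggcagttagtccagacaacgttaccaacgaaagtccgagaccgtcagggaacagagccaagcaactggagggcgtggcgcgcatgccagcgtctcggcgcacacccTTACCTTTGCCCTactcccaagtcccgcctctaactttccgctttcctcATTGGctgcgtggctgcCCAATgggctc
Cpt2: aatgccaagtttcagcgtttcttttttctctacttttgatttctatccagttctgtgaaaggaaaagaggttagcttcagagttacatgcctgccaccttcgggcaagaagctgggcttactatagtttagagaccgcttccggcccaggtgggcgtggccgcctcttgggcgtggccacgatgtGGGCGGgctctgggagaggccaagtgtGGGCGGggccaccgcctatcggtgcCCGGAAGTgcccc
Slc25a20: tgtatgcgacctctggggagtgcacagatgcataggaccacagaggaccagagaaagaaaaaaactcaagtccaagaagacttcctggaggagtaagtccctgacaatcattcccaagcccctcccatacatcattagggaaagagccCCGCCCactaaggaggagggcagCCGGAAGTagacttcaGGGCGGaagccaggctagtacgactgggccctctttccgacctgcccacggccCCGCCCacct
Cpt1a: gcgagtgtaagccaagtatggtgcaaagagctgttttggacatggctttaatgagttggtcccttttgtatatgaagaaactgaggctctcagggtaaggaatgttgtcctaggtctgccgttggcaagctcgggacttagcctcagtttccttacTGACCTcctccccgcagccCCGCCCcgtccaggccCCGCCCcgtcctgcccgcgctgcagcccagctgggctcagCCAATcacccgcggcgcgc

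In these sequences the capitals are the GC box GGGCGG in the Hadha to Hadhb, Acadl, Cpt2, Slc25a20 and Cpt1a promoters, the ETS site CCGGAAGT in Cpt2 and Slc25a20, CCAAT in Etfa and Cpt1a, and the nuclear receptor hexamer AGGTCA in Cpt1a. The longer run in capitals in Etfa resembles a pair of hexamers 1 base apart, a direct repeat, with at most 2 mismatches. All 10 genes were in the RefSeq promoter table, and motifs were counted on both strands of 300-base windows, from 250 bases before to 50 after the start. The GC box was found in 7 of the 10 windows against 35.6% of all 32817 windows in the table. The windows of Hadha and Hadhb overlap, and the only GC box of Hadha is also counted for Hadhb. CCAAT was found in 3 of 10 against 37.4%, and the hexamer in 3 of 10 (Cpt1a, Acadm and Acadvl) against 16.3%. The ETS site was in 2 of 10 (Cpt2 and Slc25a20) against 3.89%, and the NRF1 core CGCATGCG in 2 of 10 (Acadm and Etfdh) against 1.86%. The ERR element TCAAGGTCA, which contains the hexamer, was in none of the 10 and in 0.424% of all windows, and the cAMP element TGACGTCA and the E-box CACGTG were in none and in 1.79% and 7.15%. An exact direct repeat of the hexamer, the form that PPAR receptors are known to bind, was in none of the 10 and in 0.0396% of all windows. With at most 2 mismatches it was in 2 of 10 (Slc25a20 and Etfa) against 3.86%. The windows of the 10 genes ranged from 50.7% GC in Acadvl to 70.3% in Acadl, beside a median of 52.7% over all windows. The observed-to-expected ratio of CpG ranged from 0.459 in Acadm to 0.932 in Acadl, beside a median of 0.383. Acadl, with the highest values of both, was marked in all 5 libraries, and Cpt1a, at 62.3% GC and a ratio of 0.763, in 1. These matches are a description of letters and not of binding.

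Within 10 kb of the gene body, a peak was found for 10 and 6 of the 10 genes in WT replicates 1 and 2, and for 6, 5 and 7 in PDH_Mutant replicates 1, 2 and 3. Of all protein-coding genes, 54% and 36.4% had one in the WT libraries and 23.2%, 24.7% and 39.2% in the PDH_Mutant libraries. Promoter peaks were found at 10 and 5 of the 10 genes in WT and at 5, 4 and 7 in PDH_Mutant. Over all protein-coding genes the share with a promoter peak was 42.1% and 24.8% in WT and 15.3%, 16.5% and 27.9% in PDH_Mutant. The count of the 10 genes was therefore above the background share in each library. The mean number with a promoter peak in WT was 7.5 ± 3.54 (SD, n = 2), and in PDH_Mutant 5.33 ± 1.53 (SD, n = 3), a difference of 2.17 genes that was smaller than the SD of the WT libraries. The groups overlapped, since PDH_Mutant replicate 3 had more of the 10 genes than WT replicate 2. Without WT replicate 1 the difference was -0.33.

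**Figure D1:**
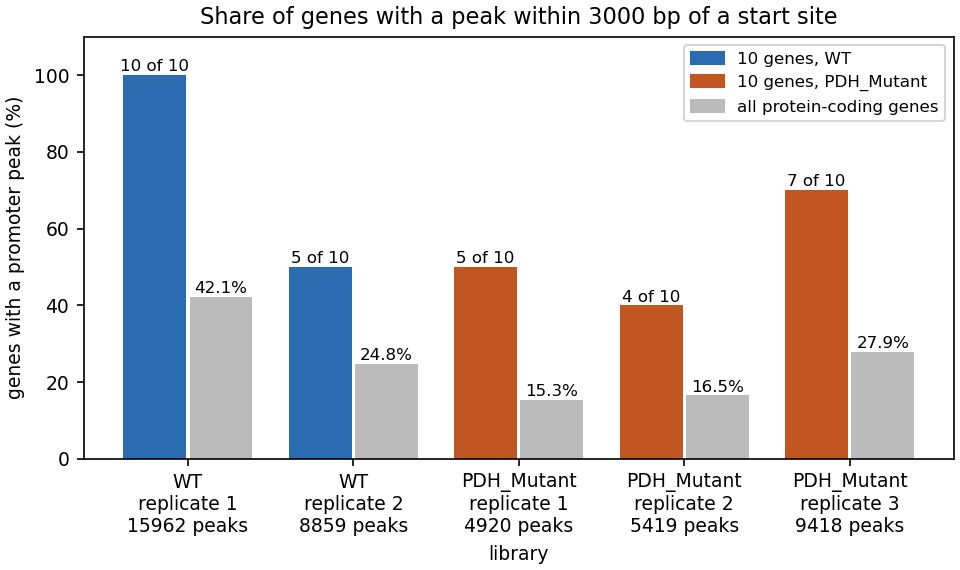
Bars give the share of genes (%) with a promoter peak in each library, for the 10 fatty acid oxidation genes (blue for WT, orange for PDH_Mutant, with the count above) and for all 21938 protein-coding genes (grey, with the percent above), and the length of each list is under its name. The highest count, 10 of 10, is in WT replicate 1, which has the longest list, and the lowest, 4 of 10, in PDH_Mutant replicate 2.

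When each list was reduced to its strongest peaks by −log10 q, as many as the shortest list held, the counts of promoter peaks became 5 and 5 in WT and 5, 4 and 4 in PDH_Mutant. The shares of all protein-coding genes were then 19.9% and 17.1% in WT and 15.3%, 15.8% and 18.7% in PDH_Mutant. At equal length, Hadha and Hadhb kept a promoter peak in all 5 libraries, Acadl in all but PDH_Mutant replicate 3, and Cpt2 and Etfa in all but PDH_Mutant replicate 2. The further peak was that of Etfdh in PDH_Mutant replicate 2, while Cpt1a, Slc25a20, Acadm and Acadvl had none. At this length the groups differed by 0.667 genes.

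In all, 33 peaks lay in the windows of the 10 genes, with the shared Hadha and Hadhb peak counted once in each library: 11 and 5 in WT and 5, 4 and 8 in PDH_Mutant. A start site of one of the 10 genes was within 3000 bp of 26 of them and inside 22. The other 7 lay nearest to the start of a neighbouring gene. Widths ran from 575 to 1913 bp and the fold enrichment from 1.96 to 4.18. This fold is the ratio of the peak's signal to the background that MACS2 estimated. The rank of a peak by −log10 q is given below with its percentile, the share of peaks in the same list that ranked lower.

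**Figure D2:**
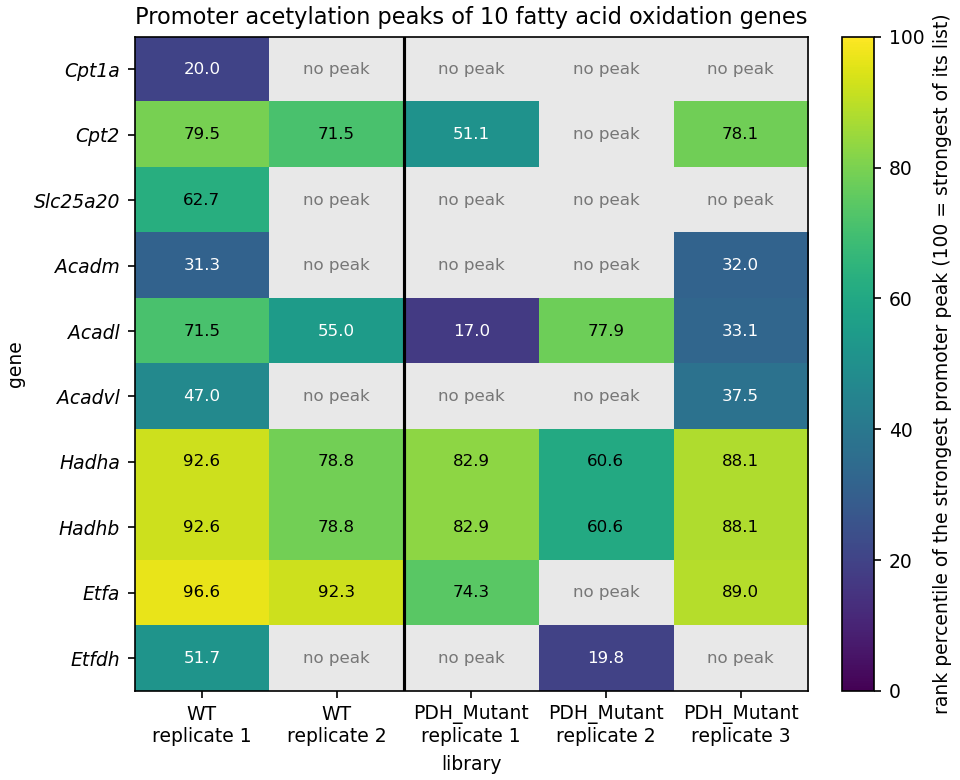
Each cell gives the rank percentile of a gene's strongest promoter peak (rows, the 10 genes; columns, the 5 libraries; 100 is the strongest peak of the list), and grey cells had no promoter peak. Hadha, Hadhb and Acadl have a value in all 5 columns, whereas Cpt1a and Slc25a20 have one in WT replicate 1 alone.

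Of the carnitine shuttle, Cpt2 was marked most often. Its fold enrichment was 3.03 and 3.05 in the WT libraries and 2.82 and 3.15 in PDH_Mutant replicates 1 and 3, and no peak was called in PDH_Mutant replicate 2. The 2 groups of called values overlapped. The peak ranked 3278 of 15962 (percentile 79.5) and 2528 of 8859 (71.5) in WT, and 2406 of 4920 (51.1) and 2060 of 9418 (78.1) in PDH_Mutant. Its WT widths were 736 and 575 bp, and its PDH_Mutant widths 590 and 621 bp. All 4 peaks covered the start of Cpt2 and shared 467 bp at chr4:107923210-107923676, which reached from the sequence before the start into the first exon and intron.

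The Slc25a20 and Cpt1a peaks were called in WT replicate 1 alone. The Slc25a20 peak, chr9:108661738-108662674, was 937 bp wide, covered the start and ranked 5951 of 15962 (percentile 62.7) with a fold of 3.17. That fold was above the Cpt2 fold of the same list, although the Cpt2 peak ranked higher. The Cpt1a peak, chr19:3323809-3325273, was 1465 bp wide, lay wholly in an intron from 508 to 1972 bp after the RefSeq start, and was 461 bp from the nearest annotated start. It had the lowest fold of the 33 peaks, 1.96, and ranked 12774 of 15962 (percentile 19.97). Of all genes, 11.2% had a promoter peak in WT replicate 1 alone, the pattern of these 2. Among genes whose strongest promoter peak in WT replicate 1 was between percentiles 0 and 25, as that of Cpt1a, the share was 71.4%, and between 50 and 75, as that of Slc25a20, it was 25.4%.

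Of the acyl-CoA dehydrogenases, Acadl had a promoter peak in each library. Its fold was 2.63 and 2.77 in WT and 2.55, 2.86 and 2.39 in PDH_Mutant, and the groups overlapped. The log2 fold was higher in WT by 0.06 (1.43 ± 0.05, SD, n = 2, against 1.38 ± 0.13, SD, n = 3), less than the spread of the PDH_Mutant libraries, with p = 0.8 in a two-sided exact permutation test. With 2 against 3 libraries this test cannot go below 0.2. The ranks were 4553 of 15962 and 3985 of 8859 in WT and 4085 of 4920, 1200 of 5419 and 6301 of 9418 in PDH_Mutant. The percentiles, 71.5 and 55.0 in WT and 16.98, 77.9 and 33.1 in PDH_Mutant, spread most within the PDH_Mutant libraries, and PDH_Mutant replicate 2 held the highest of the 5. Their means differed by 20.6 (p = 0.6, exact permutation test), and by 7.77 without PDH_Mutant replicate 1 and 38.2 without PDH_Mutant replicate 2.

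The Acadl peaks differed in place more than in fold. They were 1730 and 589 bp wide in WT against 971, 636 and 1679 bp wide in PDH_Mutant (p = 1, exact permutation test), and no base lay in all 5. In WT replicate 2 the peak ran from 853 to 265 bp before the RefSeq start, from chr1:66863574, and the other 4 covered the start. In PDH_Mutant replicate 2 it reached only to 243 bp before the start, at position 66863552, so that the 2 peaks did not meet. The widest, in WT replicate 1 and PDH_Mutant replicate 3, reached 1158 and 1152 bp before the start and covered both stretches. The GC boxes in capitals in the Acadl sequence lay within the last 84 bases before the start, outside the peak of WT replicate 2 and inside the other 4.

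**Figure D3:**
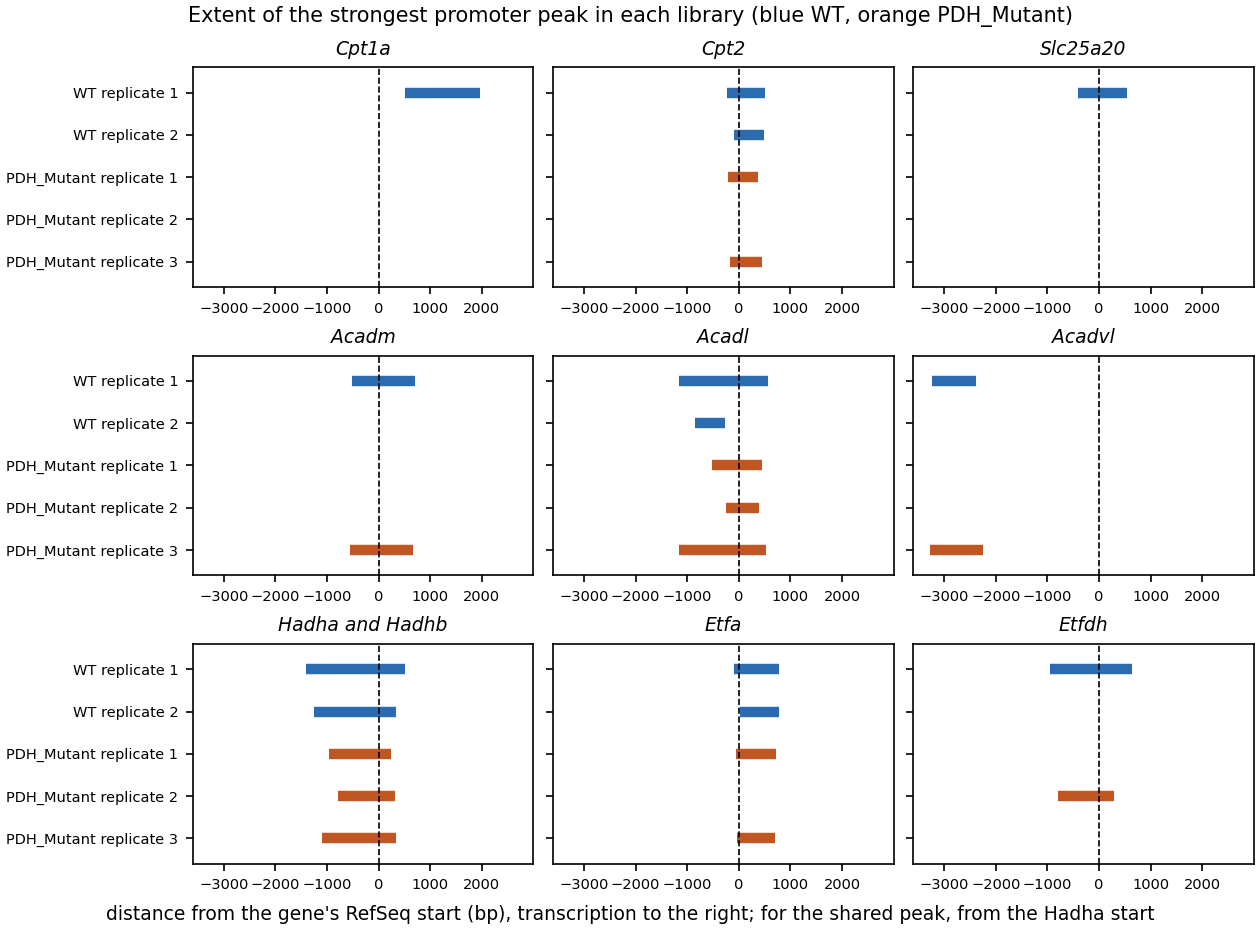
Horizontal bars show where the strongest promoter peak of each gene began and ended (x axis, bp from the RefSeq start, which is the dashed line, with transcription to the right; y axis, library; blue WT, orange PDH_Mutant). For the shared Hadha and Hadhb promoter the distance is from the Hadha start. The Acadl bars of WT replicate 2 and PDH_Mutant replicate 2 do not meet, and the Acadvl bars lie apart from its start.

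Acadm and Acadvl were marked in WT replicate 1 and PDH_Mutant replicate 3, the longest list of each group. The Acadm promoter peak was chr3:153943928-153945159 in WT replicate 1 and chr3:153943980-153945203 in PDH_Mutant replicate 3, and it covered the start in both. The folds were 2.49 and 2.59, the widths 1232 and 1224 bp, and the ranks 10970 of 15962 (percentile 31.3) and 6409 of 9418 (32.0). The values of the 2 libraries were close, with no replicate in either group. The Acadvl peak, chr11:70017808-70018662 in WT replicate 1 and chr11:70017683-70018705 in PDH_Mutant replicate 3, had folds of 2.29 and 2.50, widths of 855 and 1023 bp, and ranks of 8462 of 15962 (47.0) and 5882 of 9418 (37.5). It lay 2380 bp or more before the Acadvl start in WT replicate 1 and 2255 bp or more in PDH_Mutant replicate 3, and covered a start of Dlg4, a neighbouring gene, so it cannot be credited to Acadvl by position alone. Within 1000 bp of an Acadvl start, no peak was called in any library. The only other gene that starts within 1000 bp of Acadvl is the microRNA gene Mir324. Of all genes, 3.96% had a promoter peak in WT replicate 1 and PDH_Mutant replicate 3 alone.

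The 10 kb window also took in peaks of neighbours. A peak 31 kb from the Acadm start, beyond the end of the gene, was called in all 5 libraries with folds of 2.81 and 2.75 in WT and 2.80, 2.85 and 2.52 in PDH_Mutant, and covered the start of Rabggtb, a subunit of the Rab geranylgeranyl transferase. It alone put Acadm in the 10 kb count of WT replicate 2 and of PDH_Mutant replicates 1 and 2. A further Acadm window peak of WT replicate 1, chr3:153920959-153921624, also had Rabggtb as its nearest coding start, and an Acadvl window peak of PDH_Mutant replicate 3, chr11:70005307-70006197, covered a start of Dvl2.

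The trifunctional protein genes were marked in all 5 libraries. Hadha and Hadhb run in opposite directions from a shared promoter, with RefSeq starts 273 bp apart, and in each library 1 peak covered both starts, so the 2 genes give 1 measurement. The fold was 3.17 and 3.00 in WT and 3.08, 2.91 and 3.13 in PDH_Mutant. The groups overlapped, and the log2 fold differed by 0.02 (1.62 ± 0.06, SD, n = 2, against 1.60 ± 0.05, SD, n = 3; p = 0.8, exact permutation test). The peak ranked 1187 of 15962 and 1878 of 8859 in WT and 841 of 4920, 2134 of 5419 and 1126 of 9418 in PDH_Mutant. Its percentiles were 92.6 and 78.8 in WT and 82.9, 60.6 and 88.1 in PDH_Mutant, and their means differed by 8.49 (p = 0.6, exact permutation test), and by 0.201 without PDH_Mutant replicate 2 and 15.4 without WT replicate 2.

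The width of the Hadha and Hadhb peak separated the groups. It was 1913 and 1606 bp in WT against 1194, 1119 and 1452 bp in PDH_Mutant, so every WT value was above every PDH_Mutant value. The mean was 1760 ± 217 bp (SD, n = 2) against 1255 ± 175 bp (SD, n = 3), a difference of 504.5 bp with p = 0.2, the smallest that the exact permutation test allows, and so not past 0.05. Among the 2390 genes with a promoter peak in all 5 libraries, 31.3% had wider peaks in both WT libraries than in any PDH_Mutant library and 0.293% the opposite, and the median width over a whole list was 1150 and 987 bp in WT against 855, 896 and 1025.5 bp in PDH_Mutant. The 5 peaks shared 1026 bp, chr5:30154745-30155770, which holds the whole sequence between the starts shown above, and together spanned 1913 bp, chr5:30154466-30156378, the extent of the peak of WT replicate 1. On the Hadhb side the peak ended 1125 and 986 bp after the RefSeq start of Hadhb in WT and 685, 517 and 830 bp after it in PDH_Mutant. On the Hadha side it ended 514 and 346 bp after the RefSeq start of Hadha in WT and 235, 328 and 348 bp in PDH_Mutant. The groups were apart on the Hadhb side and overlapped on the Hadha side, which describes this peak only. How often single peak ends separate the groups among all genes was not computed, and a difference between the sides was not tested.

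Neither Acadl nor Hadha and Hadhb had groups that did not overlap in fold or in percentile. Over the 2390 genes, the fold was higher in both WT libraries than in any PDH_Mutant library for 15.8% and lower for 8.08%, and the percentile for 26.4% and 1.38%.

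Of the electron transfer genes, Etfa had the highest-ranked promoter peak of the 10 genes in both WT libraries and in PDH_Mutant replicate 3. Its fold was 4.18 and 3.81 in WT and 3.26 and 3.53 in PDH_Mutant replicates 1 and 3, with no peak called in PDH_Mutant replicate 2. Both WT values were above both PDH_Mutant values, as for 21.7% of the 595 genes with a promoter peak in the same 4 libraries, and 17.8% of them had the opposite order. The missing call leaves no value for the fifth library, so no test was run. The peak ranked 548 of 15962 (percentile 96.6) and 679 of 8859 (92.3) in WT, and 1266 of 4920 (74.3) and 1037 of 9418 (89.0) in PDH_Mutant. Its WT widths were 869 and 764 bp, and its PDH_Mutant widths 763 and 734 bp. The called values of the groups thus did not overlap in percentile or, narrowly, in width either. How often that holds among the 595 genes was not computed. The 4 peaks shared 690 bp, chr9:55511538-55512227, and lay almost wholly after the RefSeq start, reaching between 705 and 784 bp into the gene and at most 84 bp before it. Of all genes, 2.71% had a promoter peak in all libraries but PDH_Mutant replicate 2, the pattern of Etfa and Cpt2. Among genes whose strongest promoter peak in WT replicate 1 was above percentile 75, as for both, 34.2% had none in PDH_Mutant replicate 2 and 8.89% had one in all the other 4 libraries.

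Etfdh was marked in WT replicate 1 and PDH_Mutant replicate 2. Its peak was chr3:79628134-79629723 in WT replicate 1, 1590 bp wide with a fold of 2.82 and rank 7708 of 15962 (percentile 51.7). In PDH_Mutant replicate 2 it was chr3:79628475-79629568, 1094 bp wide with a fold of 2.60 and rank 4344 of 5419 (19.8). Both covered the Etfdh start and also a start of the coding gene 4930579G24Rik, which lies within 1000 bp, so the 2 genes cannot be told apart here. Only 0.492% of all genes had a promoter peak in these 2 libraries alone.

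**Figure D4:**
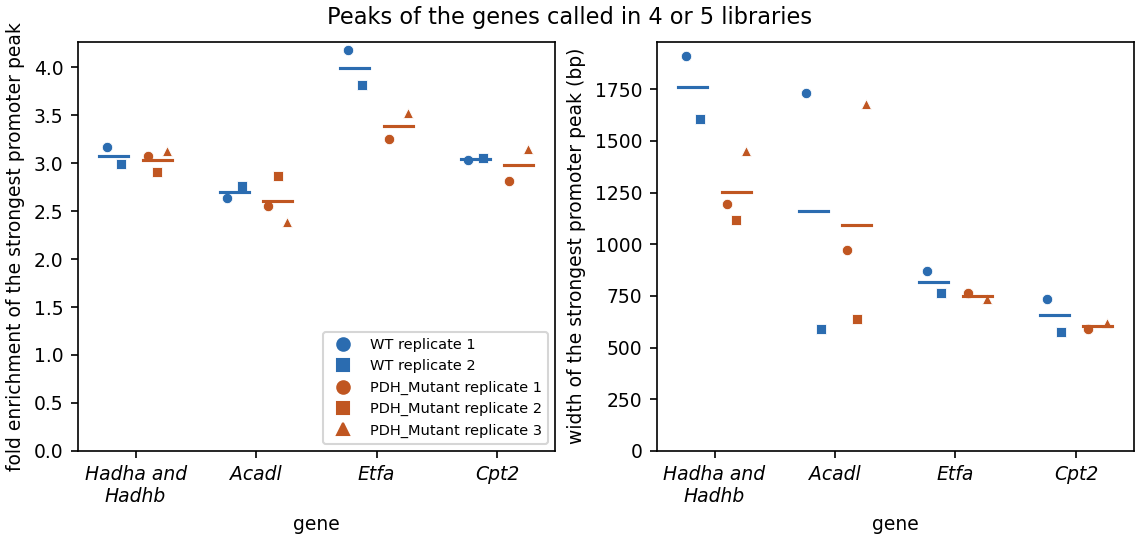
Points give the fold enrichment (left, ratio to the MACS2 background) and the width in bp (right) of the strongest promoter peak in each library, for the genes called in 4 or 5 libraries (Etfa and Cpt2 have no point for PDH_Mutant replicate 2), and lines give the group means (blue WT, orange PDH_Mutant). The WT and PDH_Mutant points overlap in fold except for Etfa, and the Hadha and Hadhb peak is wider in both WT libraries, at 1913 and 1606 bp, than in the 3 PDH_Mutant libraries.

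Of all genes, 10.9% had a promoter peak in all 5 libraries, against 3 of the 10 fatty acid oxidation genes, or 2 of 9 promoters with Hadha and Hadhb taken as 1. Among genes whose WT replicate 1 peak lay between percentiles 50 and 75, as that of Acadl, 16.5% were marked in all 5. A promoter peak in both WT libraries and in no PDH_Mutant library was found for 2.21% of all genes and for none of the 10. The opposite, every PDH_Mutant library and no WT library, was found for 0% of all genes. The median percentile of the strongest promoter peaks was 67.1 and 78.8 in WT and 74.3, 60.6 and 78.1 in PDH_Mutant. It covers only the called ones of the 10 genes, 10 and 5 in WT and 5, 4 and 7 in PDH_Mutant. The shared Hadha and Hadhb peak was counted for both genes, and weighs more where fewer genes were called. For all genes called in the same library the median was 66.9 and 62.9 in WT and 60.8, 63.0 and 63.7 in PDH_Mutant.

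The rest of the pathway was described by 5 lists of 49 other genes. Of these, 31 and 16 had a promoter peak in the WT libraries and 3, 7 and 14 in the PDH_Mutant libraries. That is 63.3% and 32.7% in WT and 6.12%, 14.3% and 28.6% in PDH_Mutant, so the share was above that of all genes in both WT libraries, below it in PDH_Mutant replicates 1 and 2 and close to it in PDH_Mutant replicate 3. A promoter peak in all 5 libraries was found for 2, Acsl5, which activates long-chain fatty acids, and Acaa1a, a peroxisomal thiolase, which is 4.08% of the 49 beside 10.9% of all genes. In each library the Acaa1a peak also covered a start of the neighbouring gene Myd88. These 2 were named after their values were seen. Another 32 had one in 1 to 4 libraries, and 15 in none.

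Among the 12 other genes of oxidation in the matrix, 8 and 5 had a promoter peak in WT and 0, 1 and 1 in PDH_Mutant. That is 66.7% and 41.7% in WT and 0%, 8.33% and 8.33% in PDH_Mutant. The shares of all genes were 42.1% and 24.8% in WT and 15.3%, 16.5% and 27.9% in PDH_Mutant. Acad9, Acaa2, Eci1, Eci2 and Decr1 had one in both WT libraries and in no PDH_Mutant library. That is 41.7% of the list and 10.2% of the 49 other pathway genes, beside the 2.21% of all genes. No gene of the other pathway lists had this pattern. Of these 5 genes, 4 were named after their values were seen. Acaa2 is the thiolase of the last step for medium chains, Eci1 and Eci2 are enoyl-CoA isomerases and Decr1 is a dienoyl-CoA reductase, which act on unsaturated fatty acids. Their folds were 2.76, 2.79, 3.34, 2.93 and 2.97 in WT replicate 1 and 2.45, 2.44, 2.44, 3.08 and 2.52 in WT replicate 2, in the order named. Except for Eci2, at percentile 58.4, these peaks were low in the list of WT replicate 2, at percentiles from 6.38 to 13.3. None of the 5 kept this pattern when the lists were made equally long, and 1 did at a −log10 q of at least 2. Of the others, Acad10 had a promoter peak in WT replicate 1 and in PDH_Mutant replicates 2 and 3. In each of these libraries the peak covered a start of the neighbouring gene Brap. In PDH_Mutant replicate 2 it covered no start of Acad10. Echs1 and Hadh had a promoter peak in WT replicate 1 alone, and Acads, Acad11, Etfb and Hsd17b10 had none. Etfb, the partner subunit of Etfa, thus had no promoter peak in any library. Etfb and Hsd17b10 were also named outside the rule for naming genes, with their values known.

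**Figure D5:**
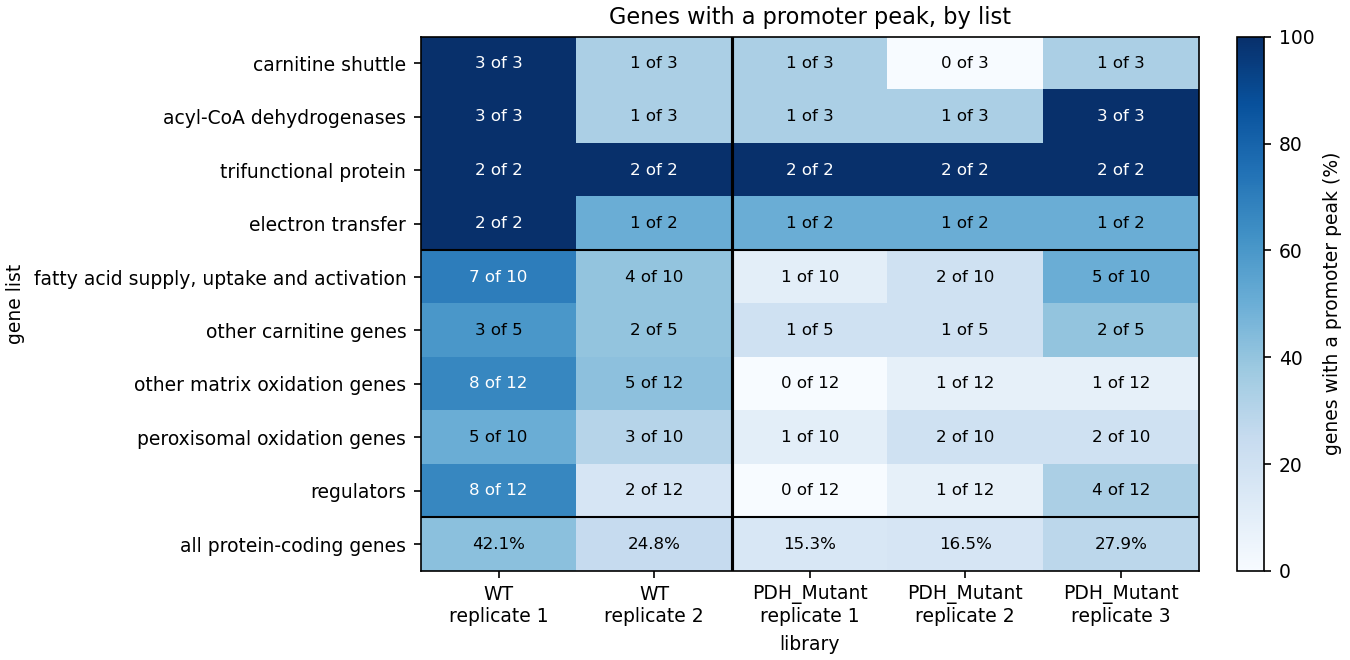
Each cell gives how many genes of a list had a promoter peak in a library, coloured by the percent (rows, 4 groups of the 10 genes above the upper line, 5 lists of other pathway genes below it and all protein-coding genes in the last row; columns, libraries). The trifunctional protein is at 2 of 2 in all 5 libraries, and the other matrix oxidation genes are at 8 and 5 of 12 in WT and at 0, 1 and 1 of 12 in PDH_Mutant.

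Among 10 genes of fatty acid supply, uptake and activation, 7 and 4 had a promoter peak in WT and 1, 2 and 5 in PDH_Mutant. That is 70% and 40% in WT and 10%, 20% and 50% in PDH_Mutant. The shares of all genes were 42.1% and 24.8% in WT and 15.3%, 16.5% and 27.9% in PDH_Mutant. Cd36, a fatty acid receptor, had one in WT replicate 2 and PDH_Mutant replicate 2, at percentiles 14.6 and 9.99. Fabp5, a fatty acid binding protein, had one in WT replicate 2 and PDH_Mutant replicate 3, at percentiles 6.97 and 6.47. Lipa, the lysosomal lipase, and Slc27a1 had one in WT replicate 1 alone, at percentiles 79.9 and 28.6, and Slc27a4 had none. Acsl1 was marked in WT replicate 1 and PDH_Mutant replicate 3.

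Of 5 other carnitine genes, 3 and 2 had a promoter peak in WT and 1, 1 and 2 in PDH_Mutant. That is 60% and 40% in WT and 20%, 20% and 40% in PDH_Mutant. The shares of all genes were 42.1% and 24.8% in WT and 15.3%, 16.5% and 27.9% in PDH_Mutant. Cpt1b and Cpt1c, the muscle and brain forms of Cpt1a, had none in any library, and Slc22a5, the carnitine importer, had one in WT replicate 1 alone. Crat, carnitine acetyltransferase, was marked in all but PDH_Mutant replicate 1, at percentile 7.11 in WT replicate 2. Except in PDH_Mutant replicate 2, the Crat peak also covered a start of the neighbouring gene Ptpa. Crot, the octanoyl form, was marked in all but PDH_Mutant replicate 2, as Cpt2 and Etfa were.

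Of 10 peroxisomal oxidation genes, 5 and 3 had a promoter peak in WT and 1, 2 and 2 in PDH_Mutant. That is 50% and 30% in WT and 10%, 20% and 20% in PDH_Mutant. The shares of all genes were 42.1% and 24.8% in WT and 15.3%, 16.5% and 27.9% in PDH_Mutant. Acox3 and Ehhadh had none, and Hsd17b4 had one in WT replicate 1 alone.

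Of 12 regulators, 8 and 2 had a promoter peak in WT and 0, 1 and 4 in PDH_Mutant. That is 66.7% and 16.7% in WT and 0%, 8.33% and 33.3% in PDH_Mutant. The shares of all genes were 42.1% and 24.8% in WT and 15.3%, 16.5% and 27.9% in PDH_Mutant. Ppard, a nuclear receptor that fatty acids activate, was marked in all but PDH_Mutant replicate 1, with folds of 4.08 and 3.57 in WT and 3.61 and 3.41 in PDH_Mutant. Ppara and Pparg, its relatives, had none, and Rxra, their partner, and Ppargc1a, a coactivator, had one in WT replicate 1 alone, at percentiles 2.84 and 20.1. Ppargc1b was marked in WT replicate 1 and PDH_Mutant replicate 3, as Acadm and Acadvl were. Its percentiles there were 20.6 and 0.627.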

How the data were processed

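ChIPseq peaks of 5 libraries (2 WT, 3 PDH_Mutant) were analysed. The authors aligned reads with BWA 0.7.17 to GRCm38/mm10, kept uniquely mapped reads outside blacklisted regions with SAMtools 1.15.1, and called broad peaks for each library with MACS2 2.2.6. No input control is named in the sources used here. The deposited lists hold each peak's fold (a linear ratio to the MACS2 background) and the authors' −log10 p and −log10 q. No peak passed a chromosome end of the GRCm38 reference. Peaks were joined to GENCODE genes in Python 3.11.15 (numpy 2.4.6, pandas 2.3.3, scipy 1.17.1), and the joins were checked against bedtools 2.31.1 and tested on simulated lists. A peak within 3000 bp of a start site was a promoter peak, and the one with the highest −log10 q was used. Two-sided exact permutation tests compared values only for genes called in all 5 libraries, as double the smaller one-sided p, and counts over the genes got no test. The alternatives changed the window, the peak threshold, the list length, the transcripts, the choice of peak and the libraries. Reads were not used here, so the authors' differential analysis with DiffBind 3.2 was not repeated.

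The genes and lists were chosen with earlier results of these data known. The rule named the 10 genes in every library, up to 6 genes of each other list that were not marked in all 5 libraries, in list order, and neighbours whose start was within 1000 bp of, or nearer to a peak than, one of the 10. Sequences were read from the RefSeq promoter table and the RefSeq genome. Single genes of the marker and pathway lists that are not named are not reported here.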

Additional observations from a re-analysis of the deposited data

How the results depend on the processing

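The difference between groups in the number of the 10 genes with a peak within 10 kb was 2 (WT minus PDH_Mutant), and with a promoter peak 2.17. Leaving out 1 library at a time moved them between 0 and 4, and between -0.33 and 4.67. WT replicate 1 set these values: without it they were 0 and -0.33, without WT replicate 2 they were 4 and 4.67, and without a PDH_Mutant library they stayed between 1.5 and 3. Under the other alternatives both moved by less than the pooled SD within groups, 1.83 and 2.39 genes. With lists of equal length they were 1 and 0.667, and at a −log10 q of at least 5 they were 3.67 and 3.17.

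No difference in fold, percentile or width for Acadl or for Hadha and Hadhb could pass 0.05 in any setting. The width of the Hadha and Hadhb peak was greater in WT in each of them, by 351 to 658 bp with 1 library left out. Of 55 values of these genes under alternatives, 48 kept their direction and 7 turned. The percentile of Hadha and Hadhb was -3.36 in lists of equal length, where Acadl was not called in every library. Without WT replicate 1 the width of Acadl was -506.3 bp and the log2 fold of Hadha and Hadhb -0.020, and without PDH_Mutant replicate 2 they were -165.5 bp and -0.010. Without PDH_Mutant replicate 3 the log2 fold of Acadl was -0.0020. With 1 library left out, the log2 fold of Acadl lay between -0.0020 and 0.13 and its width between -506.3 and 634.7 bp, and the log2 fold of Hadha and Hadhb between -0.020 and 0.060. The percentile difference lay between 7.77 and 38.2 for Acadl and between 0.201 and 15.4 for Hadha and Hadhb.

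With replicates 1 and 2 as a replicate block, which leaves out PDH_Mutant replicate 3, the counts differed by 2.5 and 3 genes and the log2 fold of Acadl by -0.0020. Nothing says that equal numbers share an animal or a day, and over 2390 genes the replicate 1 minus replicate 2 differences in log2 promoter fold had a correlation of -0.0251 between the groups, so the block is given here only. It changed no call.

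The pattern of 5 other matrix oxidation genes marked in both WT and in no PDH_Mutant library, with alternatives chosen after seeing the data, held for 0 in lists of equal length and for 1 at a −log10 q of at least 2. It held for 5 within 1000 bp. Leaving out a library can only keep or raise this count, so it was not tried. The unknown depth of the libraries limits every count.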
